A study of Rattus norvegicus with 4 samples.

Results

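Foxp1, Foxp2 and Foxp4 are 3 members of the FOXP subfamily of forkhead transcription factors. They were looked up by symbol among the 32883 genes of each library, and all 3 were found, each under 1 identifier (Foxp1 ENSRNOG00000009184, Foxp2 ENSRNOG00000054508, Foxp4 ENSRNOG00000022804). The set was chosen with the levels of these genes in view, on UMI sums per library and cell class and on detection in adipocyte nuclei, compared between the tissues. All differences of the 3 genes, between tissues and between classes, are therefore given as a description, with no test.

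FOXP proteins bind DNA through the forkhead domain and act mostly as repressors. They pair with themselves and with each other through a leucine zipper, and they recruit corepressors such as CtBP1 and the NuRD complex. Foxp1 is required for B lymphocyte development and for the quiescence of naive T lymphocytes, and in mouse adipocytes it is known to restrain thermogenic genes. Foxp2 is best known from neurons and speech, and Foxp4 from the developing lung and gut.

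Nuclei came from naïve male Dahl SS rats (strain SS/HsdMcwiCrl) aged 16 weeks, described as normal, on a standard diet. Thoracic aorta perivascular adipose tissue (taPVAT), the fat around the aorta, and subscapular brown adipose tissue (BAT) were each represented by 2 libraries from snap-frozen tissue, named taPVAT 1, taPVAT 2, BAT 1 and BAT 2 after their replicate numbers, and the design gives 2 rats for each tissue. By the labels the groups differ in the depot only, and no library was treated. The labels do not say whether a replicate number marks 1 rat or a shared preparation.

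The libraries held 63654436 to 158140959 UMIs in 14765 to 44637 barcodes, above the 10000 nuclei that the labels give as the target. After barcodes with under 500 genes were left out, 12336 to 42979 nuclei per library remained, with median depths of 2783 to 4594 UMIs. taPVAT 2 had the fewest nuclei and the highest median depth. Between 126 and 424 barcodes were shared by any pair of libraries. Nuclei were assigned to classes by UMIs of marker genes, none of them a forkhead gene. Nuclei assigned as adipocytes made up 79.5% to 82.8% of the nuclei of a library. Most adipocyte markers were seen in most kept nuclei, such as Acsl1 in 96.6% to 98.9% and Plin1 in 88.6% to 96.1%. Plin4 was seen in 7.86% to 19.9%. The assignment as adipocyte thus rests largely on having at most 2 UMIs of any other class, and the share is not a measure of cell composition. Held-out markers that played no part in the assignment were higher than in adipocytes for 6 of 6 fibroblast, vascular endothelial, mural and myeloid markers in every library. Of 5 held-out adipocyte markers, 4 or 5 were higher in adipocytes than in vascular endothelial nuclei, by a median of 1.31 to 1.82 times. Gates for Schwann and mesothelial nuclei found 5 to 38 nuclei per library where they found any, and their held-out markers did not stand out, so they are not described under those names.

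In adipocyte nuclei, Foxp2 was the member that differed most between the depots. Its level was 509 and 274 UMIs per 1000000 UMIs of the class (CPM) in taPVAT 1 and taPVAT 2, and 62.2 and 24.0 CPM in BAT 1 and BAT 2. Both taPVAT libraries were higher than both BAT libraries, and the lower taPVAT library was still well above the higher BAT library. The means were 391 ± 166 CPM in taPVAT and 43.1 ± 27.0 CPM in BAT (SD, n = 2 each). Replicate by replicate, taPVAT was 8.17-fold and 11.4-fold higher. The fitted log2 fold change was 3.23 ± 0.55 (SE), moving between 2.71 and 3.97 when each library was left out in turn. Of the 16151 genes in the adipocyte fit, 0.520% had both taPVAT libraries at least 2 times both BAT libraries, as Foxp2 did, and 19.4% had tissues that did not overlap in either direction. Since Foxp2 was chosen on this contrast, nothing is read from these shares. The edgeR quasi-likelihood test called 0 genes of the adipocyte fit (percent called 0), with 308 genes at an unadjusted p under 0.05, and DESeq2 called 65.

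Foxp1, the member tied to lymphocytes and to the thermogenic programme of fat, was at a similar level in adipocytes of both depots. Its level was 381 and 344 CPM in taPVAT 1 and taPVAT 2, and 421 and 320 CPM in BAT 1 and BAT 2. The taPVAT values lay between the BAT values. The fitted log2 fold change was 0.02 ± 0.28 (SE), which spans differences in either direction.

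Foxp4 was at 45.1 and 17.5 CPM in taPVAT 1 and taPVAT 2, and at 61.8 and 18.6 CPM in BAT 1 and BAT 2. Its values followed the replicate number more than the depot: replicate 1 was 2.58 times replicate 2 in taPVAT and 3.32 times in BAT. Replicate by replicate, BAT was 1.37 and 1.07 times taPVAT. The fitted log2 fold change between depots was -0.32 ± 0.64 (SE), and it ran from -1.13 without taPVAT 1 to 0.68 without BAT 1. Foxp2 was also higher in replicate 1 than in replicate 2, by 1.86 times in taPVAT and 2.59 times in BAT. For Foxp1 the same ratios were 1.11 and 1.32. What the numbers share was not given by the labels, and their part in these values was not tested.

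**Figure D1:**
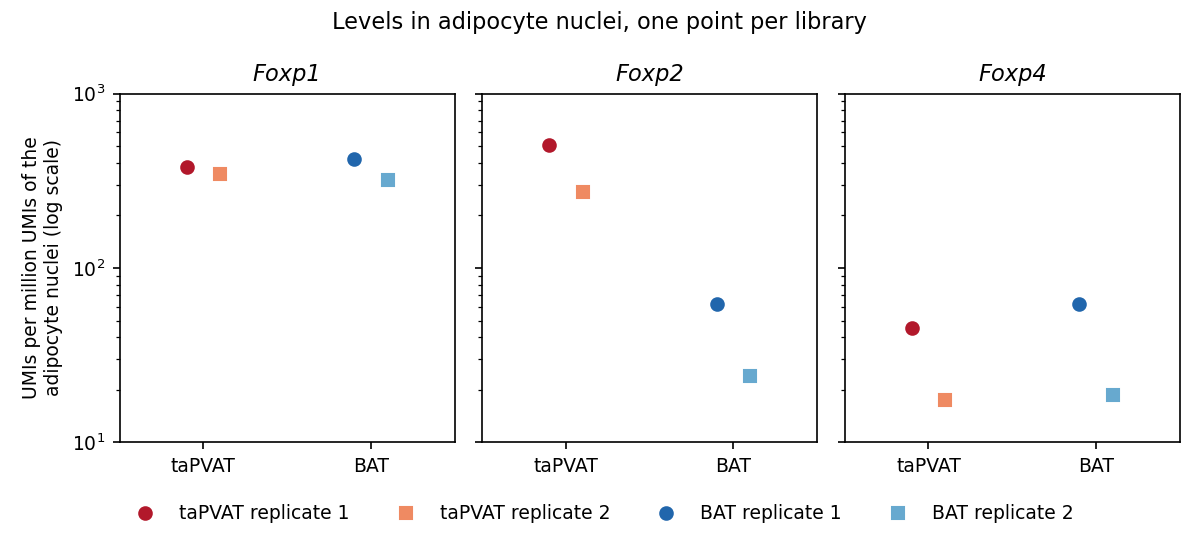
Level of each gene in adipocyte nuclei, as UMIs per 1000000 UMIs of those nuclei on a log axis, with 1 point per library and bars for the 95% Poisson interval, which is smaller than the points. Foxp2 sits at 274 and 509 CPM in taPVAT against 24.0 and 62.2 CPM in BAT, Foxp1 overlaps between the depots, and Foxp4 separates by replicate number.

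Detection per nucleus gave the same order. As counted, 66.9% and 54.8% of adipocyte nuclei of taPVAT 1 and taPVAT 2 had a Foxp2 UMI, against 16.4% and 5.79% in BAT 1 and BAT 2. The 95% Wilson intervals of all these shares are narrow because the classes hold 9987 to 34170 nuclei, and they cover counting error only. Because a deeper nucleus shows a gene more often, each nucleus was also thinned to 1000 UMIs, which left out the few shallower nuclei and kept 9959 to 33397. Thinned Foxp2 detection was 35.3% and 20.9% in taPVAT 1 and taPVAT 2, and 5.20% and 2.03% in BAT 1 and BAT 2. At this depth too, both taPVAT shares were above both BAT shares. Thinned Foxp1 detection was 29.5% and 27.1% in taPVAT and 32.0% and 25.6% in BAT, for replicates 1 and 2. Thinned Foxp4 detection was 4.26% and 1.78% in taPVAT and 5.81% and 1.86% in BAT.

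Foxp2 was also spread less evenly over adipocyte nuclei than the other members. If every nucleus of a library had the same rate per UMI, 77.2% and 72.1% of nuclei in taPVAT 1 and taPVAT 2 would hold a Foxp2 UMI, more than the 66.9% and 54.8% seen. In BAT the expected shares were 24.2% and 7.52%, against 16.4% and 5.79% seen. BAT 1 allows a comparison at an equal mean, since its adipocyte nuclei held on average 0.289 Foxp2 UMIs and 0.288 Foxp4 UMIs. There 16.4% of nuclei held Foxp2 and 22.5% held Foxp4, while 0.755% held 5 or more Foxp2 UMIs and 0.0525% held 5 or more Foxp4 UMIs. The same number of UMIs thus lay in fewer nuclei for Foxp2. The variance of Foxp2 UMIs was 1.65 to 2.50 times the value at an equal rate over the 4 libraries, that of Foxp1 1.32 to 1.72 times, and that of Foxp4 1.07 to 1.17 times. Cells of a library are not replicates, so these are descriptions of each library.

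**Figure D2:**
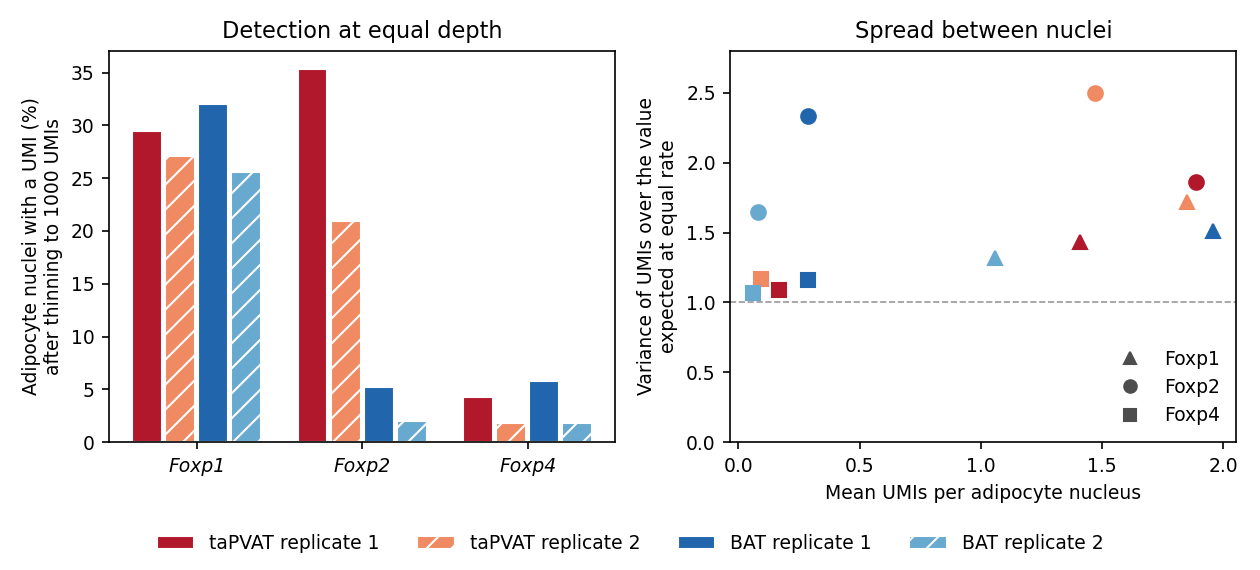
Left, share of adipocyte nuclei with a UMI of each gene after thinning every nucleus to 1000 UMIs, with 1 bar per library. Right, variance of UMIs per adipocyte nucleus over the value expected if all nuclei had 1 rate per UMI (dashed line at 1) against the mean UMIs per nucleus, with 1 point per gene and library. Foxp2 falls from 35.3% and 20.9% in taPVAT to 5.20% and 2.03% in BAT, and its variance ratio of 1.65 to 2.50 lies above the 1.07 to 1.17 of Foxp4.

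Nuclei rich in Foxp2 were compared with nuclei without it among adipocyte nuclei of 3000 to under 10000 UMIs, a comparison added after the data were seen. Of these nuclei, 41.3% in taPVAT 1, 21.7% in taPVAT 2, 3.36% in BAT 1 and 0.736% in BAT 2 held 3 or more Foxp2 UMIs. Foxp1 was at 394, 348, 434 and 374 CPM in the Foxp2-rich nuclei and at 385, 346, 420 and 329 CPM in nuclei without Foxp2, in the order taPVAT 1 and taPVAT 2, then BAT 1 and BAT 2. Ucp1, the uncoupling protein of brown fat, was at 906, 447, 1489 and 550 CPM in the rich nuclei and at 920, 478, 1565 and 639 CPM in those without. Foxp1 was slightly higher in the rich nuclei of every library. Over all adipocyte nuclei with a Foxp2 UMI it was at 385, 343, 430 and 330 CPM, in the same order. In those without a Foxp2 UMI it was at 365, 346, 418 and 319 CPM, so taPVAT 2 went the other way. Ucp1 was lower in the rich nuclei of every library. Adipoq, the adiponectin gene, was also lower in the rich nuclei of every library, at 279, 217, 318 and 209 CPM against 327, 226, 363 and 254 CPM. The fibroblast gene Dcn was at 19.5, 25.0, 13.9 and 17.6 CPM in the rich nuclei and at 25.1, 25.2, 15.6 and 17.4 CPM in the others. Kcnip1, a potassium channel-interacting protein gene named here after its values were seen, was lower in the Foxp2-rich nuclei of every library as well. It was at 61.8, 71.4, 135 and 37.7 CPM in the rich nuclei and at 152, 118, 179 and 172 CPM in those without. The rich nuclei were deeper, with medians of 4892 to 5961 UMIs against 3874 to 4883, and the lowest of the counts comes from 72 rich nuclei in BAT 2. The part of depth in these values was not tested.

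Splitting adipocyte nuclei by Ucp1 changed Foxp2 little beside the gap between depots. Thinned Foxp2 detection was 35.8% with a Ucp1 UMI and 31.9% without in taPVAT 1, 21.1% and 19.9% in taPVAT 2, 5.25% and 4.52% in BAT 1, and 2.08% and 1.90% in BAT 2. The share was a little higher with Ucp1 in all 4 libraries. The Ucp1 levels of the Foxp2-rich nuclei above pointed the other way, being lower than in nuclei without Foxp2 in every library. No relation between the 2 genes is read from either comparison. The nuclei without Ucp1 were also shallower. Split by depth instead, thinned detection above and up to the library's median depth was 38.6% and 31.9% in taPVAT 1, 22.3% and 19.5% in taPVAT 2, 5.54% and 4.86% in BAT 1, and 2.26% and 1.80% in BAT 2. The part of depth in the split by Ucp1 was not tested. Both depots kept the same order within each of these splits.

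Foxp2 was higher in taPVAT than in BAT in fibroblast, vascular endothelial, mural and myeloid nuclei too, with no overlap. In fibroblasts its level was 760 and 627 CPM in taPVAT 1 and taPVAT 2, and 169 and 82.1 CPM in BAT 1 and BAT 2, which is 4.50-fold and 7.64-fold. The fitted log2 fold change was 2.44 ± 0.42 (SE). In vascular endothelial nuclei the levels were 390 and 146 CPM in taPVAT and 45.9 and 17.4 CPM in BAT, 8.49-fold and 8.37-fold. In mural nuclei, the pericytes and smooth muscle cells of vessels, they were 366 and 158 CPM in taPVAT and 54.6 and 20.6 CPM in BAT, 6.71-fold and 7.67-fold. In myeloid nuclei they were 428 and 130 CPM in taPVAT and 53.1 and 7.66 CPM in BAT, the last from 2 UMIs. Depots did not overlap, in either direction, for 25.2% of genes in fibroblasts, 21.4% in vascular endothelial, 25.8% in mural and 22.6% in myeloid nuclei. The shares of genes with both taPVAT libraries at least 2 times both BAT libraries were 1.85% in fibroblasts, 0.633% in vascular endothelial, 0.401% in mural and 0.207% in myeloid nuclei. The edgeR test called 0.0583% of genes in fibroblasts (6 of 10298), where DESeq2 called 50. It called 0 genes in the vascular endothelial, mural and myeloid fits, with 222, 324 and 65 genes at an unadjusted p under 0.05. DESeq2 called 6, 17 and 0 genes in those 3 fits.

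These levels have to be read beside the adipocyte RNA in the same nuclei. The median of 12 adipocyte markers, those of the adipocyte gate included, was at 65.0% to 75.5% of its adipocyte level in vascular endothelial nuclei, at 60.7% to 75.9% in mural and at 58.6% to 79.1% in myeloid nuclei. Foxp2 was at 53.2% to 76.7% of its adipocyte level in vascular endothelial nuclei, at 57.9% to 87.7% in mural and at 31.9% to 85.3% in myeloid nuclei. Library by library, Foxp2 lay near the median of the adipocyte markers in some cases and apart from it in others. In vascular endothelial nuclei of BAT 1 and BAT 2 it was at 73.8% and 72.4%, with markers at 73.7% and 73.8%. In mural nuclei of BAT 1 and BAT 2 it was at 87.7% and 86.0%, with markers at 69.4% and 74.6%. In myeloid nuclei of taPVAT 2 and BAT 2 it was at 47.3% and 31.9%, with markers at 58.6% and 65.6%. How much of the Foxp2 in these 3 classes is RNA of adipocytes was not tested. In fibroblasts the adipocyte markers were at 38.8% to 70.3% of their adipocyte level, while Foxp2 was at 149% to 342%. In T or NK nuclei Foxp2 was at 482 and 116 CPM in taPVAT and at 41.7 and 14.4 CPM in BAT. The taPVAT 2 value there rests on 16 UMIs and that of BAT 2 on 3. In B lymphocytes the depots overlapped, at 450 and 39.7 CPM in taPVAT and 43.8 and 35.5 CPM in BAT, with 3 UMIs behind the taPVAT 2 value and 3 behind that of BAT 2. At 1000 UMIs per nucleus, 29.0% of B lymphocyte and 29.3% of T or NK nuclei of taPVAT 1 held a Foxp2 UMI, with adipocyte markers at 80.2% and 87.0% of the adipocyte level. In taPVAT 2 the shares were 1.38% and 8.93%, with adipocyte markers at 50.2% and 51.6%. In BAT 1 the shares were 5.50% and 2.51%, with markers at 74.6% and 73.9%. In BAT 2 they were 1.57% and 1.24%, with markers at 79.9% and 72.9%. A stricter gate of 6 UMIs over 3 markers gave fibroblast values of 156% to 315%, with adipocyte markers at 34.4% to 71.9%. Vascular endothelial values were 52.9% to 76.8% with markers at 62.7% to 73.9%, and mural values 58.0% to 97.1% with markers at 59.3% to 74.0%. In myeloid nuclei, 30 to 77 per library, Foxp2 was at 79.6%, 35.6%, 42.7% and 0% in taPVAT 1, taPVAT 2, BAT 1 and BAT 2. The adipocyte markers in these myeloid nuclei were at 61.6% to 76.0%.

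The differences between classes were put on 1 scale in a fit with the library as a term. Foxp2 was above its adipocyte level in fibroblasts in 4 of 4 libraries, at 1.49 and 2.29 times in taPVAT 1 and taPVAT 2 and at 2.71 and 3.42 times in BAT 1 and BAT 2. The fitted difference was 1.08 ± 0.18 on the log2 scale (SE). In vascular endothelial, mural and myeloid nuclei Foxp2 was below its adipocyte level in 4 of 4 libraries, with fitted differences of -0.66 ± 0.18, -0.53 ± 0.19 and -0.69 ± 0.22. Without taPVAT 2 the mural and the myeloid difference were both -0.36. The adipocyte markers were below their adipocyte level in the same classes, as given above, and their part in these differences was not tested.

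**Figure D3:**
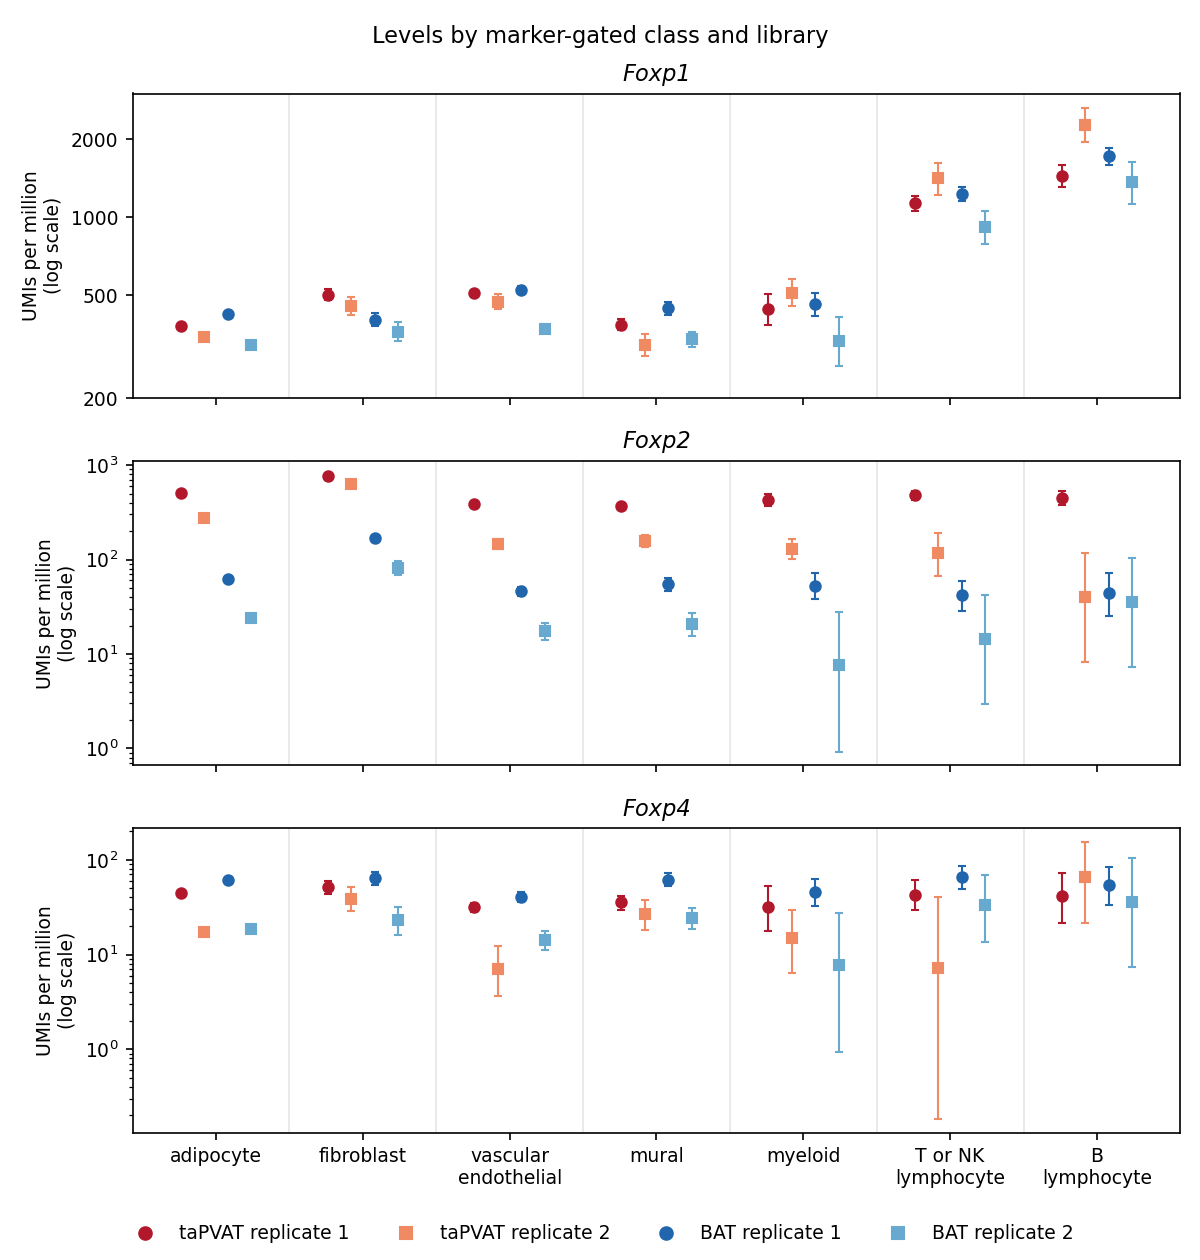
Level of each gene by cell class, as UMIs per 1000000 UMIs of the class on a log axis, with 1 point per library and bars for the 95% Poisson interval. Foxp2 is highest in fibroblasts in all 4 libraries (82.1 to 760 CPM) and higher in taPVAT than in BAT in the first 6 classes shown, whereas Foxp1 is highest in B lymphocytes (1361 to 2274 CPM) and T or NK lymphocytes (915 to 1411 CPM).

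Foxp1 reached its highest levels in lymphocytes. B lymphocytes held 1447 and 2274 CPM in taPVAT 1 and taPVAT 2, and 1715 and 1361 CPM in BAT 1 and BAT 2. T or NK lymphocytes held 1131 and 1411 CPM in taPVAT, and 1232 and 915 CPM in BAT. All 8 values were above every Foxp1 value of the adipocyte, fibroblast, vascular endothelial, mural and myeloid classes, which ran from 320 to 523 CPM. These lymphocyte classes are small, with 31 to 102 B lymphocyte and 49 to 218 T or NK nuclei per library, so a fit with all classes of at least 20 nuclei was added after the data were seen. The fitted differences of Foxp1 from adipocytes were 1.93 ± 0.11 in B lymphocytes and 1.42 ± 0.11 in T or NK lymphocytes, on the log2 scale. At 1000 UMIs per nucleus, 74.7% to 84.1% of B lymphocyte nuclei and 49.4% to 69.4% of T or NK nuclei held a Foxp1 UMI, against 25.6% to 32.0% of adipocyte nuclei.

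Lymphatic endothelial nuclei, which were rare in BAT, held 796 and 918 CPM of Foxp1 in taPVAT 1 and taPVAT 2 (217 and 47 nuclei), and 554 and 642 CPM in BAT 1 and BAT 2 (12 and 10 nuclei). Foxp2 was at 511 and 484 CPM there in taPVAT. In BAT no Foxp2 UMI was counted in these nuclei. At 3 UMIs, taken as the limit of a count of 0, this allows levels of up to 79.2 and 101 CPM, and the upper 95% Poisson limits are 97.3 and 125 CPM. These lie above the Foxp2 levels of BAT adipocytes, so no difference from adipocytes could be detected at this depth. These nuclei were too few for the fits.

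Among the other classes, Foxp1 was 1.34, 1.37, 1.24 and 1.16 times its adipocyte level in vascular endothelial nuclei of taPVAT 1 and taPVAT 2 and BAT 1 and BAT 2. All 4 libraries were higher, with a fitted difference of 0.23 ± 0.10. The fitted differences of Foxp1 from adipocytes were 0.08 ± 0.10 in fibroblasts, -0.07 ± 0.10 in mural and 0.02 ± 0.11 in myeloid nuclei. Fitted values lie below the CPM ratios by a mean of 0.10 to 0.24 on the log2 scale across the classes because of the TMM scaling, and for mural nuclei the CPM ratio was above 1 in 3 of 4 libraries while the fitted value was negative. Fibroblasts, besides the sparse lymphatic nuclei, were the class in which Foxp1 did not overlap between the depots, at 502 and 453 CPM in taPVAT and 402 and 361 CPM in BAT. The fitted log2 fold change there was 0.28 ± 0.33, and 25.2% of genes had non-overlapping depots in fibroblasts.

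Foxp4 was below its adipocyte level in vascular endothelial nuclei of 4 of 4 libraries, with a fitted difference of -0.65 ± 0.17 on the log2 scale. The levels were 31.4 and 7.04 CPM in taPVAT 1 and taPVAT 2, and 40.5 and 14.2 CPM in BAT 1 and BAT 2, which is 40.3% to 76.2% of the adipocyte level, beside adipocyte markers at 65.0% to 75.5%. The part of adipocyte RNA in this value was not tested. In myeloid nuclei the fitted difference was -0.62 ± 0.25, below the adipocyte level in 4 of 4 libraries. These myeloid values rest on 15, 8, 37 and 2 Foxp4 UMIs in taPVAT 1, taPVAT 2, BAT 1 and BAT 2. Their Poisson intervals all include the adipocyte level of the same library. With the stricter gate, myeloid Foxp4 was at 51.6%, 129%, 100% and 0% of its adipocyte level, in the same order. It was thus not below that level in every library. The fitted difference of Foxp4 was 0.24 ± 0.18 in fibroblasts and 0.03 ± 0.18 in mural nuclei. Levels of different genes are not compared here, since gene lengths were not used.

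**Figure D4:**
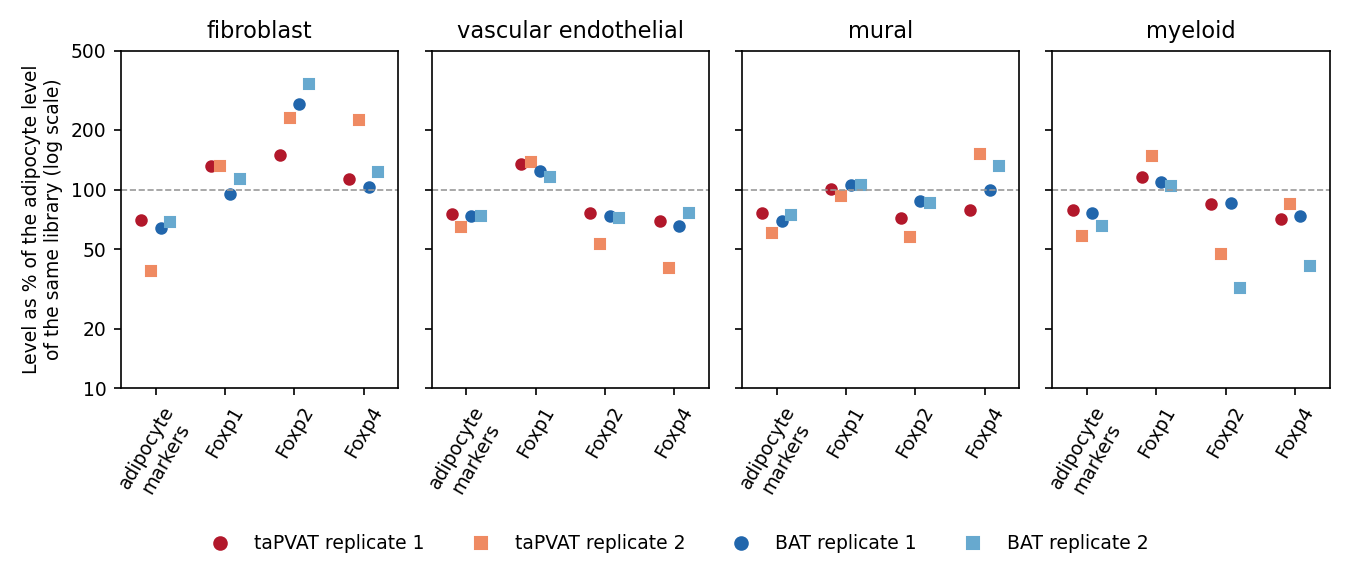
Level in fibroblast, vascular endothelial, mural and myeloid nuclei as a percent of the adipocyte level of the same library, on a log axis, for the median of 12 adipocyte markers and for each FOXP gene, with 1 point per library and a dashed line at 100%. Fibroblast Foxp2 lies at 149% to 342% while the adipocyte markers lie at 38.8% to 70.3%, and Foxp2 in the other 3 classes lies at 31.9% to 87.7%.

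Among classes of at least 50 nuclei in a library, the order for Foxp2 was fibroblast first in all 4 libraries, then adipocyte in 3 of them. In taPVAT 1 lymphatic endothelial nuclei (511 CPM) and adipocytes (509 CPM) did not differ beyond the Poisson interval of the first, 460 to 565 CPM. The classes below adipocytes changed order from library to library. Foxp1 was higher in B than in T or NK lymphocytes in all 4 libraries, smaller lymphocyte classes included, and the remaining classes changed order. For Foxp4 no class led in all 4 libraries.

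Genes of 2 lists gave the context. The first holds 41 other forkhead genes, of which 37 were found and 16 could be tested in adipocytes. The edgeR test called 0 of 16 between the depots, as it called 0 of all 16151 genes, and the median log2 fold change was 0.21 against 0.01 over all genes tested. The forkhead genes Foxc1 and Foxd1 had unadjusted p-values of 0.00594 and 0.00119 in edgeR at levels of at most 1.27 CPM, with adjusted p-values of 1 and 0.868. Foxc1 was at 1.10 and 1.27 CPM in taPVAT and at 0.0602 and 0.247 CPM in BAT, and Foxd1 at 0.213 and 0.280 CPM in taPVAT with no UMI in BAT. DESeq2, which called 0.402% of all genes in adipocytes, called both higher in taPVAT. Both passed the filter on low counts only through taPVAT, where they are high, so nothing is read from these calls. Foxo1, an insulin-regulated factor of adipocytes, was at 633 and 717 CPM in taPVAT 1 and taPVAT 2 and at 616 and 658 CPM in BAT 1 and BAT 2, a log2 fold change of 0.14 ± 0.29. Foxp3, the factor of regulatory T cells and the remaining relative of the set, was at 0.663 to 1.42 CPM in adipocytes. In T or NK lymphocytes 2, 7, 6 and 3 Foxp3 UMIs were counted in the 4 libraries.

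The second list holds 24 genes of candidate FOXP partners and of the corepressor complexes that FOXP proteins recruit, and 23 could be tested in adipocytes. The edgeR test called 0 of 23 between the depots, again beside 0 of all genes. DESeq2 also called 0 of 23. In the edgeR fit 0 had an unadjusted p under 0.05, and the median log2 fold change was 0.04 against 0.01 over all genes tested. Prdm16, a coregulator of the brown fat programme, was at 55.8 and 78.1 CPM in taPVAT 1 and taPVAT 2 and at 59.8 and 72.3 CPM in BAT 1 and BAT 2, so the depots overlapped. Ctbp1, a corepressor of Foxp1 and Foxp2, was at 38.3 and 38.6 CPM in taPVAT and at 40.9 and 42.6 CPM in BAT, with a log2 fold change of -0.07 ± 0.25. In the other 4 classes edgeR called 0 genes of either list between the depots, where it called 0 to 0.0583% of all genes, with 0 at an unadjusted p under 0.05.

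Between classes, genes of the partner list were called in both directions, as were many genes outside it. In fibroblasts 6 of 23 partners were higher than in adipocytes and 7 lower, beside 22.5% higher and 21.8% lower of the 11764 genes tested. In vascular endothelial nuclei 3 were higher and 6 lower, beside 20.8% and 21.3% of all genes. In mural nuclei 4 were higher and 5 lower, beside 18.0% and 16.3%. In myeloid nuclei 5 were higher and 8 lower, beside 17.9% and 19.7%. Most of these counts lie near the shares over all genes. Prdm16 was lower in fibroblasts than in adipocytes by -0.93 ± 0.14 (edgeR adjusted p = 1.44e-05), and lower in mural nuclei by -0.61 ± 0.13 (edgeR adjusted p = 0.00129). Gatad2a, a NuRD subunit, was higher in vascular endothelial nuclei by 0.79 ± 0.10 (edgeR adjusted p = 4.58e-06), and so was the corepressor Ctbp2, by 1.10 ± 0.15 (edgeR adjusted p = 4.16e-06). The median differences of the list were 0.02, -0.00, -0.04 and -0.25 in fibroblast, vascular endothelial, mural and myeloid nuclei, against -0.05, -0.08, -0.07 and -0.16 over all genes.

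Of 9 other forkhead genes that could be tested between classes, 0 were higher and 3 lower than in adipocytes in fibroblasts, 1 higher and 2 lower in vascular endothelial nuclei, and 0 higher and 3 lower in both mural and myeloid nuclei. With 16.3% to 21.8% of all genes called lower and 17.9% to 22.5% called higher in these classes, nothing is read from such counts of 9 genes. Foxo1 was lower in all 4 classes, by -0.46 to -0.62 on the log2 scale (edgeR adjusted p = 0.000369 to 0.00286), at 393 to 594 CPM against 616 to 717 CPM in adipocytes. The adipocyte markers were at 38.8% to 79.1% of their adipocyte level in these classes, and their part in the values of Foxo1 and Prdm16 was not tested. Foxn3 was higher in vascular endothelial nuclei by 0.52 ± 0.11, at 731 and 647 CPM in taPVAT and 688 and 495 CPM in BAT (edgeR adjusted p = 0.000935), and was called lower in fibroblasts by -0.29 ± 0.11 (edgeR adjusted p = 0.0464). That call is not borne out in every library: Foxn3 was at 461 and 375 CPM in taPVAT fibroblasts and 351 and 304 CPM in BAT fibroblasts, against 465, 514, 382 and 296 CPM in adipocytes, so BAT 2 went the other way, and fitted fibroblast values lie 0.15 below the CPM ratios on the log2 scale.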

How the data were processed

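Nuclei of 4 libraries were profiled with a droplet-based kit that reads transcript ends, per the labels' protocols. Values in the deposited files are raw counts, in unique molecular identifiers (UMIs), of each gene in each barcode. They were made with Cell Ranger 7.1.0 on the build Rnor 6.0, per the submitters' processing notes. Every barcode had at least 500 UMIs, and reads of overlapping genes cannot be told apart, since how introns and strand were handled is not given in the sources used here.

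The members and both lists were chosen with earlier results of these data known. Barcodes with at least 500 genes were kept. A nucleus joined a non-adipocyte class at 4 or more UMIs over 2 or more of its markers, was called mixed when a second class came close, and was an adipocyte at 4 or more UMIs over 3 or more adipocyte markers with at most 2 UMIs of any other class. Markers of the other classes seen in over 15% of the nuclei of a library were not used, which dropped Dcn and Mcam. This limit did not apply to adipocyte markers. No clustering or doublet caller was run. Nuclei mixed between non-adipocyte classes were left out. Adipocyte UMIs did not count against another class, so doublets of an adipocyte with another nucleus can stay in that other class. Doublets of 2 adipocytes stay in the adipocyte class. Nuclei at the threshold made up 1.47% to 35.2% of the fitted non-adipocyte classes.

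UMI sums per library and class were fitted with edgeR 4.0.16 (TMM, filterByExpr, quasi-likelihood test, Benjamini-Hochberg over all genes) for classes of at least 50 nuclei in each library, at an adjusted p of 0.05. The class differences of the members were planned as tests and are given as a description, since the members were chosen with the class sums in view. DESeq2 1.42.0 was an alternative. The SE was taken from the F statistic. Thinned detection is the expectation of drawing 1000 UMIs per nucleus without replacement, in Python. The size of difference that can be called with 2 libraries per depot was looked at in simulated counts only. These were drawn from the adipocyte means and library sizes with a shared dispersion. Of the simulated 2-fold changes 1 of 99 was called, and of the 8-fold changes 89 of 98. How far this holds for the real genes was not tested. A gene that was not called is therefore not read as unchanged.

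Named genes are the members, list genes called between depots, up to 5 list genes per class with the smallest p between classes, and the 5 genes most like each member by Pearson r of log2(CPM + 1). Foxc1, Foxd1, Foxp3, Ctbp1, Kcnip1, Ucp1, Adipoq, Dcn and the genes near Foxp2 were named after their values were seen, as were Foxo1 and Prdm16 between depots. Some genes that this rule names are not reported here.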

Additional observations from a re-analysis of the deposited data

Results flagged for a closer look

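Foxp4 in T or NK lymphocytes, set against adipocytes of the same library, pointed in opposite directions in the 2 depots. It was picked from 18 combinations of gene and class that were checked for such opposite directions. The log2 ratio was -0.07 and -1.27 in taPVAT 1 and taPVAT 2, and 0.09 and 0.85 in BAT 1 and BAT 2. The values rest on 31, 1, 52 and 7 Foxp4 UMIs in 202, 49, 218 and 77 nuclei. The difference between the depots was not tested, and the Poisson intervals of the lymphocyte levels (29.2 to 60.9, 0.184 to 40.5, 49.1 to 86.2 and 13.5 to 69.1 CPM) include the adipocyte levels of the same libraries (45.1, 17.5, 61.8 and 18.6 CPM).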

How the results depend on the processing

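The Foxp1, Foxp2 and Foxp4 log2 fold changes between depots in adipocytes moved by less than the spread between replicates in all 39 alternatives run. So did 142 of 144 alternatives of the class differences of the 3 genes. The exceptions were Foxp2 in vascular endothelial nuclei without the deepest 5% of nuclei (-0.95) and in mural nuclei at most 5% mitochondrial UMIs (-0.14). Both counts include the fits with a library left out, which could hardly exceed that spread. Leaving out 1 of 2 libraries moves a depot mean by less than their SD, and the class differences are limited in a like way. Nothing is read from the part of those fits in the counts. Among them the adipocyte Foxp4 log2 fold change ran from -1.13 to 0.68. When each library was left out, the Foxp2 difference ran from 0.95 to 1.32 in fibroblasts, from -0.72 to -0.47 in vascular endothelial, from -0.64 to -0.36 in mural and from -0.92 to -0.36 in myeloid nuclei. The cause of the changes here and below was not tested.

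The number of genes called between depots was less stable. In adipocytes it was 0, and 65 with DESeq2, 43 with no filter and 0 to 107 when each library was left out. In fibroblasts it was 6, and 50 with DESeq2, 176 with no filter, 3 with the strict gate, 3 when Dcn was added to the gate, and 0 to 85 when each library was left out. In vascular endothelial nuclei it was 0, and 6 with DESeq2, 52 with no filter and 1 to 16 when each library was left out. In mural nuclei it was 0, and under the same settings 17, 92 and 0 to 47. In myeloid nuclei it was 0, with no filter 11, and 2 to 20 when each library was left out. Called between mural and adipocyte nuclei were 4034 genes, and 1544 at most 5% mitochondrial UMIs. Where a library was left out, the lone library of a depot is assumed to vary like the other pair.

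The labels do not say that a replicate number pairs libraries. The deviations of same-numbered libraries from their depot means correlated at 0.70 in adipocytes and at 0.42 to 0.62 in the other classes. With the replicate number as a block, 223 genes were called in adipocytes, 285 in fibroblasts, 177 in vascular endothelial, 2 in mural and 2 in myeloid nuclei. The partner list had 0 genes among them. In adipocytes 2 of 16 other forkhead genes were called (Foxc1 and Foxd1, both higher in taPVAT), beside 1.38% of all genes. Both passed the filter on low counts only through taPVAT, where they are high, so nothing is read from these 2 calls. The adipocyte Foxp2 log2 fold change with this block was 3.32 ± 0.22 (SE).

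The strict gate left too few myeloid nuclei, and the limit of 5% mitochondrial UMIs too few fibroblast, vascular endothelial and myeloid nuclei, so these were not run. Of the 5 genes most like Foxp4, 3 were shared at a pseudocount of 10 CPM. Lymphocyte and lymphatic values rest on few nuclei.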

Other observations

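The genes whose pattern was most like each member were sought over 26 sums of class and library with at least 50 nuclei, among 8475 genes. These sums share libraries, depth and adipocyte RNA, so r is a description with no p. For Foxp2 the 5 genes were Rims2 (0.94), a presynaptic scaffold gene, Pcsk6 (0.91), a proprotein convertase gene, Btbd19 (0.88), Lss (0.87), a cholesterol synthesis gene, and Acsl5 (0.85), an acyl-CoA synthetase gene. For Foxp1 they were Add1 (0.97), Tmem163 (0.92), Uhrf2 (0.92), Ikzf3 (0.91) and Bach2 (0.91), where Ikzf3 and Bach2 are lymphocyte transcription factor genes. For Foxp4 they were Stim1, Tmem143, Dhx40, Sema4b and Cdon, all at 0.87. Among the members, r was 0.10 for Foxp1 with Foxp2, 0.42 for Foxp1 with Foxp4 and 0.30 for Foxp2 with Foxp4. In adipocytes the 5 genes named for Foxp2 were higher in both taPVAT libraries than in both BAT libraries. Foxp2 was chosen on this contrast, so nothing is read from their match. The 5 named for Foxp4 were higher in replicate 1 than in replicate 2 of both depots, as Foxp4 was.

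Of the 6 protein-coding genes nearest to Foxp2 in the RefSeq annotation, 3 on each side, Bmt2 and Mdfic were well detected in adipocytes. The other 4 (Ppp1r3a, Gpr85, Rbmxl1b and Tfec), which include both direct protein-coding neighbours, were at most at 0.579 CPM. The RefSeq annotation is of another build than the counts. Bmt2 was at 54.8 and 62.6 CPM in adipocytes of taPVAT 1 and taPVAT 2, and at 49.6 and 61.3 CPM in BAT 1 and BAT 2. Mdfic was at 136 and 65.0 CPM in taPVAT and at 129 and 62.4 CPM in BAT, so it separated by replicate number. Their log2 fold changes were 0.13 ± 0.28 and 0.11 ± 0.47 (edgeR adjusted p = 1 for both).

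At equal depth, Foxp1 was found at a like share in adipocyte nuclei with and without a Foxp2 UMI. In taPVAT 2, thinned Foxp1 detection was 27.2% in nuclei with a Foxp2 UMI and 27.1% in nuclei without. In BAT 2 it was 25.5% and 25.6%, in taPVAT 1 it was 29.9% and 28.5%, and in BAT 1 it was 32.7% and 31.9%.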
